A study of Gallus gallus with 6 samples.

Results

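Sestrins and other genes grouped with stress brakes on protein synthesis were examined in chicken lens explants. The genes were chosen by name from the deposited tables: the sestrins SESN1, SESN2 and SESN3, the mTORC1 inhibitor DDIT4, the eIF4E-binding protein EIF4EBP1, the pseudokinase TRIB3, the eIF2 kinases EIF2AK1, EIF2AK3 and EIF2AK4, and TSC22D3. Of these 10 genes, 9 had a row of that name among the 24356 genes of the tables, and TRIB3 was not analysed here. The genes were chosen with the comparison of GSK-J4 and DMSO already known, so their fold changes and adjusted p-values in that comparison describe them and are not an independent test.

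The explants came from Gallus gallus lenses put through a model of cataract surgery and kept in culture, with 10% serum in the medium. Beginning on day 1 after the injury and ending on day 3, they received daily either GSK-J4, a drug that enters cells and inhibits the histone demethylases KDM6A and KDM6B, or its vehicle DMSO. Each group had 3 libraries, all from injured lenses. The labels give no dose and do not say whether libraries came from separate animals or cultures. The p-values therefore cover the spread among these 6 libraries alone, and how much of it lies between animals is not known. Counts from chromosome W, given below, differed between libraries of a group, so these did not all hold the same mix of animals.

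Cells limit protein synthesis by a pair of main routes when nutrients or folding capacity run short. On one route, sestrins hold back the amino acid signal to the kinase complex mTORC1 through the GATOR complexes, DDIT4 acts on mTORC1 through the TSC complex, and eIF4E-binding proteins, released from mTORC1 control, keep eIF4E from the mRNA cap. On the other, kinases phosphorylate the initiation factor eIF2, which slows initiation in general while translation of the transcription factor ATF4 goes up. In mammals, SESN2 and DDIT4 are among the genes that ATF4 induces, SESN1 and SESN2 are known targets of p53, and SESN3 is a target of FOXO factors.

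The libraries held between 14862268 and 22541756 counts. Marker genes of lens fibres and lens epithelium summed to between 201800 and 248000 CPM (counts scaled to library size) with GSK-J4 and between 178100 and 208800 CPM with DMSO, whereas the lists for leukocytes, endothelium, retina and neurons, and pigment cells stayed between 15.7 and 43.1 CPM in every library. The markers of red blood cells, in which EIF2AK1 is abundant in mammals, summed to between 9.61 and 14.1 CPM with GSK-J4 and between 13.6 and 17.2 CPM with DMSO. Most of each sum was ALAS2, the 1 tested gene of this list, at 9.32 to 13.7 CPM with GSK-J4 and 12.97 to 16.9 CPM with DMSO. The globin genes HBBA, HBM, HBE and HBZ had no counts. Of the 3 tested retina and neuron markers, RBPMS was called lower, with a log2 fold change of -0.82 (GSK-J4 minus DMSO). The other 2 were not called, with ELAVL4 at 0.35, the opposite sign, and SYT1 at -0.84. The part of cell makeup in the results below was not tested. Genes of the female chromosome W summed to between 15.6 CPM (replicate 3) and 763 CPM with GSK-J4 and between 390 and 938 CPM with DMSO, so the sexes were mixed unequally; 0 of the 9 genes lie on chromosome Z or W. In bulk tissue, fewer cells of a type and less RNA per cell cannot be told apart.

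Of the 9 genes, SESN2 and TSC22D3 were higher with GSK-J4 and the other 7 were not called in edgeR's quasi-likelihood test at a Benjamini-Hochberg adjusted p below 0.05 over all 12583 genes tested. The background is that 1.05% of all tested genes were called higher and 3.99% lower. None of the 9 was called lower, which was also the count (0) at an unadjusted p under 0.05, in DESeq2, in limma-voom and in limma-trend. The median log2 fold change was 0.15 over the 9 genes and 0.01 over all tested genes, with 8 values above 0 and 1 below. CPM ranges of the groups did not overlap for 3 of the 9 genes, against 24.3% of all tested genes.

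**Figure D1:**
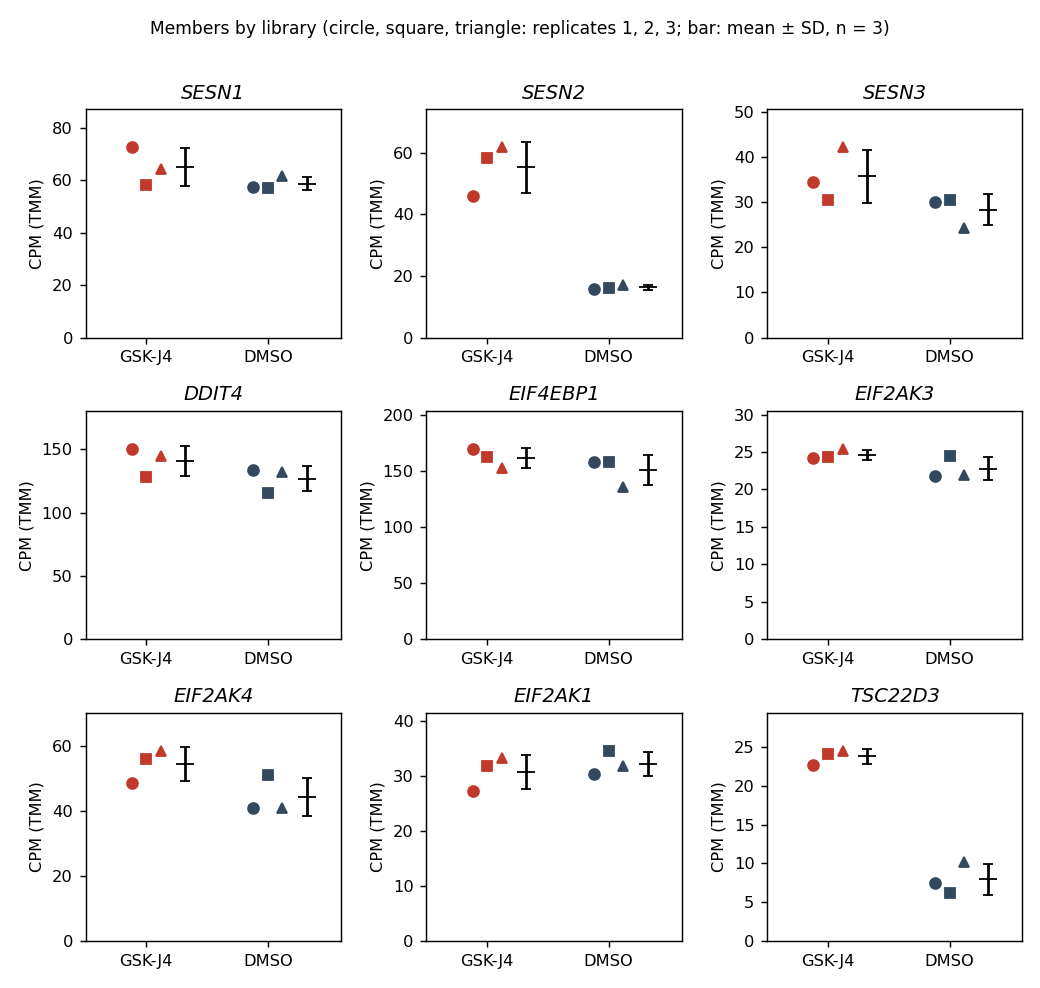
Each panel plots 1 gene, with TMM-normalised CPM on the vertical axis from 0 and the GSK-J4 libraries left of the DMSO libraries. Circles, squares and triangles are replicates 1, 2 and 3, and the black bar is the mean with its SD (n = 3). SESN2 and TSC22D3 have GSK-J4 points far above all DMSO points, while the points of the groups lie close together or overlap in the other panels.

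SESN2 (ENSGALG00000037603) encodes the sestrin that in mammals binds leucine and releases the GATOR2 complex when leucine is present. Its level was 45.9, 58.3 and 61.7 CPM in GSK-J4 replicates 1, 2 and 3, against 15.7, 16.1 and 17.04 CPM in DMSO replicates 1, 2 and 3. Every GSK-J4 library was above every DMSO library, and the vehicle libraries differed little among themselves. SESN2 was 3.40-fold higher with GSK-J4 (95% interval 2.73 to 4.24), a log2 fold change of 1.77 (SE 0.14, edgeR adjusted p = 0.00010). A larger rise was seen for 0.223% of tested genes. Without GSK-J4 replicate 3, the library with the fewest chromosome W counts, the log2 fold change was 1.68 (edgeR adjusted p = 0.001). The tables place the gene on chromosome 23 from 2253610 to 2261049 on the plus strand; the sources used here name no genome build. SESN1 lies on chromosome 3 from 67074926 to 67146996 and SESN3 on chromosome 1 from 186709569 to 186747771, both on the plus strand.

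SESN1 (ENSGALG00000015286) encodes a sestrin that also binds GATOR2. It was present at 72.4, 58.1 and 64.3 CPM in GSK-J4 replicates 1, 2 and 3, against 57.3, 57.1 and 61.6 CPM in DMSO replicates 1, 2 and 3. The ranges overlapped, and the log2 fold change of 0.15 had a 95% interval of -0.11 to 0.41 (edgeR adjusted p = 0.553), which leaves room for a rise of up to 1.33-fold. Leaving out GSK-J4 replicate 1 gave 0.064, and leaving out GSK-J4 replicate 2 gave 0.235. SESN3 (ENSGALG00000017204), which in mammals also acts on the kinase AKT through mTORC2, had 34.6, 30.5 and 42.2 CPM in GSK-J4 libraries, against 30.1, 30.5 and 24.4 CPM in DMSO libraries. Its ranges were separate by a narrow margin, between 30.54 CPM in GSK-J4 replicate 2 and 30.48 CPM in DMSO replicate 2. The log2 fold change of 0.33 had an interval of -0.01 to 0.68 and was not called (edgeR adjusted p = 0.275), and it was 0.20 without GSK-J4 replicate 3.

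On a per-length scale, the sestrins stood in other proportions with GSK-J4 than with DMSO. Summed over the 3 sestrin genes, the level was 85.7, 77.6 and 89.7 FPKM (fragments per kilobase of gene length, scaled to library size) in GSK-J4 replicates 1, 2 and 3, against 59.9, 60.2 and 61.8 FPKM in DMSO replicates 1, 2 and 3. The group means differed by 23.7 FPKM, of which SESN2 gave 14.7, SESN3 4.72 and SESN1 4.25 FPKM. SESN2 made up 24.8% ± 3.998 of the sum with GSK-J4 and 10.1% ± 0.471 with DMSO (SD, n = 3 each). SESN1 made up 49.1% ± 4.71 with GSK-J4 and 61.3% ± 2.91 with DMSO (SD, n = 3 each). Per length, SESN1 was the most abundant sestrin in all 6 libraries. In CPM, which leaves out length, SESN2 (58.27) was just above SESN1 (58.09) in GSK-J4 replicate 2, and SESN1 was highest in every other library. The share of SESN3 was 26.1% ± 2.44 with GSK-J4 and 28.7% ± 3.36 with DMSO (SD, n = 3 each). These shares rest on the gene lengths in the tables, which for SESN1 (1695 bases) and SESN3 (1749 bases) are multiples of 3 and may cover coding sequence alone, whereas that for SESN2 is 2863 bases.

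**Figure D2:**
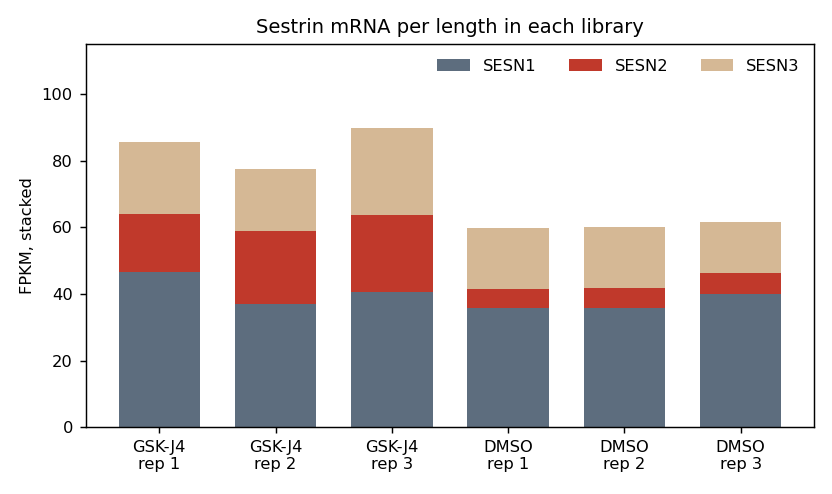
Stacked bars give the FPKM of SESN1, SESN2 and SESN3 in each library, GSK-J4 replicates on the left and DMSO replicates on the right. The summed height is 77.6 to 89.7 FPKM with GSK-J4 and 59.9 to 61.8 FPKM with DMSO, and the red SESN2 segment is the one that differs most.

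DDIT4 (ENSGALG00000041459), also called REDD1, is an inhibitor of mTORC1 that many stresses induce in mammals. It had 150.3, 127.9 and 144.9 CPM in GSK-J4 replicates 1, 2 and 3, against 133.4, 115.6 and 132.0 CPM in DMSO replicates 1, 2 and 3. The second replicate was the lowest in both groups, and the ranges overlapped. The log2 fold change of 0.15 had a 95% interval of -0.09 to 0.40 (edgeR adjusted p = 0.516), so that the interval of the fold change ran from 0.936 to 1.32. On the log2 scale, leaving out GSK-J4 replicate 2 gave 0.229, and leaving out DMSO replicate 2 gave 0.0887. Its span in the tables, chromosome 6 from 12170562 to 12174718 on the minus strand, overlaps that of ANAPC16 on the same strand, and no source used here says how reads shared by both were counted.

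EIF4EBP1 (ENSGALG00000003205), the translation repressor that mTORC1 phosphorylates to release eIF4E, had 169.8, 162.8 and 152.7 CPM in GSK-J4 libraries, against 158.7, 158.5 and 135.5 CPM in DMSO libraries. The ranges overlapped and the log2 fold change was 0.10, with an interval of -0.14 to 0.34 (edgeR adjusted p = 0.676). This became 0.067 when GSK-J4 replicate 1 was left out, and 0.0295 when DMSO replicate 3 was. Relative to its target EIF4E, its FPKM was 3.14, 2.32 and 2.16 times as high in GSK-J4 replicates 1, 2 and 3, against 3.67, 2.35 and 2.27 times in DMSO replicates 1, 2 and 3. Replicate 1 had the highest ratio in each group, and the groups overlapped. Among the eIF4E-binding proteins, EIF4EBP1 held 62.3% ± 1.09 of the summed FPKM with GSK-J4 and 61.6% ± 1.26 with DMSO (SD, n = 3 each), EIF4EBP2 34.7% and 35.6%, and EIF4EBP3 2.92% and 2.77%.

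None of the eIF2 kinases was called in edgeR's test. EIF2AK4 (ENSGALG00000009611), or GCN2, which senses uncharged tRNA, had 48.7, 56.1 and 58.6 CPM in GSK-J4 libraries, against 41.1, 51.2 and 40.8 CPM in DMSO libraries. Only DMSO replicate 2 reached into the range of the GSK-J4 libraries. Its log2 fold change was 0.30, with an interval whose lower end lay just below 0 and whose upper end was 0.59, an edgeR adjusted p of 0.262 and an unadjusted p of 0.05004. EIF2AK3 (ENSGALG00000015958), or PERK, the kinase of the endoplasmic reticulum, had 24.2, 24.4 and 25.4 CPM in GSK-J4 libraries, against 21.9, 24.5 and 21.9 CPM in DMSO libraries. EIF2AK1 (ENSGALG00000003391), the haem-regulated kinase, had 27.2, 31.8 and 33.2 CPM in GSK-J4 libraries, against 30.3, 34.6 and 31.8 CPM in DMSO libraries. For both, the CPM ranges of the groups overlapped. The log2 fold change was 0.11 for EIF2AK3 (interval -0.17 to 0.40, edgeR adjusted p = 0.692) and -0.07 for EIF2AK1 (interval -0.36 to 0.22, edgeR adjusted p = 0.837), and leaving out 1 library gave 0.0876 to 0.172 for EIF2AK3, highest without DMSO replicate 2, and from -0.121 to 0.015 for EIF2AK1, with the ends reached without GSK-J4 replicates 3 and 1.

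With the interferon-induced kinase EIF2AK2 included, the eIF2 kinases summed to 33.1, 36.5 and 38.2 FPKM in GSK-J4 replicates 1, 2 and 3, against 30.7, 36.3 and 32.5 FPKM in DMSO replicates 1, 2 and 3. EIF2AK4 made up 31.7% to 32.6% of the sum with GSK-J4 and 27.2% to 29.5% with DMSO. EIF2AK1, the most abundant of them per length in every library, made up 39.2% to 41.0% with GSK-J4 and 44.2% to 46.9% with DMSO. EIF2AK2 made up 4.36% to 4.92% with GSK-J4 and 3.19% to 4.23% with DMSO. The ranges of these 3 shares did not overlap between the groups, although none of the 3 genes was called. The shares are parts of the same sum, so they depend on each other. In CPM, the ranges of the groups overlapped for EIF2AK1, EIF2AK2 and EIF2AK4. Among all tested genes, CPM ranges of the groups did not overlap for 24.3%, which is for single genes and not for shares of a sum. EIF2AK3 held 21.9% to 24.5% with GSK-J4 and 22.02% to 23.2% with DMSO, and these ranges overlapped. All these shares rest on the gene lengths in the tables, 2288 bases for EIF2AK1 and 5071 for EIF2AK4. That of EIF2AK3, 3258 bases, is a multiple of 3 and may cover coding sequence alone. In CPM, which leaves out length, EIF2AK4 was above EIF2AK1 in every library.

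TSC22D3 (ENSGALG00000027069) is listed under that name in the tables, and the RefSeq gene table of assembly GRCg7b gives the same NCBI gene as TSC22D4 with GILZ and TSC22D3 as synonyms, so which mammalian family member it matches is uncertain. GILZ is a leucine zipper protein that glucocorticoids induce in mammals. TSC22D3 was included by name, and whether it slows protein synthesis was not tested. Its level was 22.7, 24.1 and 24.5 CPM in GSK-J4 replicates 1, 2 and 3, against 7.46, 6.19 and 10.2 CPM in DMSO replicates 1, 2 and 3. All GSK-J4 libraries were above all DMSO libraries, with little spread among the GSK-J4 libraries. It was 3.00-fold higher with GSK-J4 (95% interval 2.24 to 4.01), a log2 fold change of 1.58 (SE 0.19, edgeR adjusted p = 0.00084), and without GSK-J4 replicate 3 it was 1.56 (edgeR adjusted p = 0.00739). Its coefficient of variation was 27.6% with DMSO, the highest of the 9 genes, and 3.17% with GSK-J4. The lowest DMSO count of 106 by itself carries a counting error of 9.71%. The counts were 363, 517 and 342 in GSK-J4 replicates 1, 2 and 3. Even a count of 678 carries a counting error of 3.84%, so the 3.17% is below what sampling of reads alone gives. The tables place TSC22D3 on chromosome 4 from 1786951 to 1794312 on the plus strand.

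**Figure D3:**
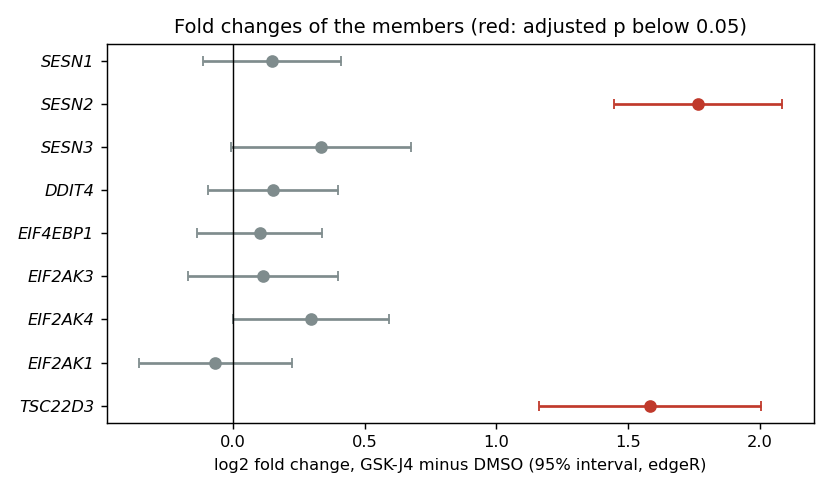
Points are log2 fold changes (GSK-J4 minus DMSO) from edgeR and bars their 95% intervals, 1 row per gene. The intervals of SESN2 and TSC22D3 (red, adjusted p below 0.05) lie above 1, and those of the other 7 genes include 0.

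The levels covered a wide range. In FPKM, DDIT4 was the most abundant of the 9 genes, at 238.5 ± 21.0 with GSK-J4 and 213.5 ± 18.7 with DMSO (SD, n = 3 each), followed by EIF4EBP1 at 152.0 ± 9.34 with GSK-J4 and 140.8 ± 9.89 with DMSO, and SESN1 at 41.4 ± 4.90 with GSK-J4 and 37.2 ± 2.37 with DMSO. In FPKM, these 3 held the same order in both groups with no overlap between neighbours. In CPM, which leaves out length, EIF4EBP1 was instead above DDIT4 in every library. Below these 3 in FPKM, the order with GSK-J4 was SESN3, SESN2, TSC22D3, EIF2AK1, EIF2AK4 and EIF2AK3. The ranges of SESN3 and SESN2 overlapped, as did those of SESN2 and TSC22D3. With DMSO the order was SESN3, EIF2AK1, EIF2AK4, EIF2AK3, TSC22D3 and SESN2, and overlaps were seen between SESN3 and EIF2AK1, between EIF2AK3 and TSC22D3, and between TSC22D3 and SESN2.

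By mean, SESN2, at 20.8 ± 2.96 FPKM, thus stood above TSC22D3 and the eIF2 kinases with GSK-J4, and last with DMSO, at 6.10 ± 0.386 FPKM (SD, n = 3 each). In both groups its FPKM range overlapped that of TSC22D3, so the order of SESN2 and TSC22D3 per length is not settled. In CPM, SESN2 was above TSC22D3 in every library. Among all tested genes, the DMSO level stood at the 40.6th percentile for SESN2, the 42nd for TSC22D3 and the 97.9th for DDIT4. The length given for DDIT4 is 639 bases, a multiple of 3, so its FPKM may be set against coding sequence alone. The order of the genes and the overlaps between neighbours were the same in TMM-normalised CPM per kilobase. That scale uses the same gene lengths and differs by 1 factor per library, so it cannot test the lengths.

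**Figure D4:**
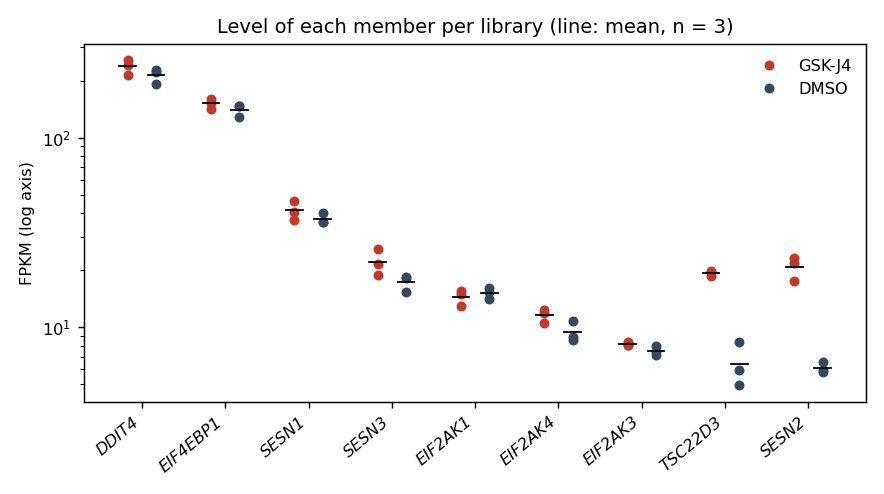
Points are FPKM per library on a log axis, red for GSK-J4 and dark for DMSO, with the group mean as a line; genes are ordered by their DMSO mean. DDIT4 and EIF4EBP1 lie above 100 FPKM in both groups, and TSC22D3 and SESN2 at the right end are the genes whose red and dark points stand farthest apart. The red and dark points of SESN3 and EIF2AK3 are also separate, by narrow margins. For EIF2AK3 this holds in FPKM alone, as its CPM ranges overlapped.

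Likeness between genes over the 6 libraries was measured by the root mean square difference of log2 CPM, centred on each gene's mean. That mean was taken over both groups, so the difference between the treatments was part of the pattern compared. The genes most like SESN2 were sought among 8620 genes with a symbol and a mean of at least 5 CPM. They were ALDH18A1 (difference 0.23), which starts proline synthesis, the protease gene PCSK6 (0.23), PYCR1 (0.25), which completes proline synthesis, CTH (0.27), which makes cysteine, and the metallothionein gene MT3 (0.29). The log2 fold changes of these genes ran from 1.301 (CTH) to 1.842 (PCSK6), against 1.77 for SESN2. Likeness to SESN2 apart from the treatment difference was not tested. ALDH18A1 had 147.5, 222 and 214 CPM in GSK-J4 replicates 1, 2 and 3, lowest in replicate 1 as SESN2 was. With DMSO it had 55.6, 70.1 and 88.5 CPM in replicates 1, 2 and 3, where SESN2 differed little. PYCR1 and CTH were also lowest in replicate 1 among the GSK-J4 libraries. PCSK6 was instead lowest in GSK-J4 replicate 2. MT3 was highest in GSK-J4 replicate 1, at 59.6, 52.5 and 55.1 CPM in GSK-J4 replicates 1, 2 and 3. For SESN1, which varied little, the genes were ST7 (0.036), DRAM2 (0.049), TNKS (0.050), CA5B (0.051) and MEF2A (0.053).

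The machinery on which these brakes act was looked at through lists of genes. In 5 lists covering the mTORC1 core with its GATOR regulators, the Rag GTPases with Ragulator and folliculin, AMP-activated kinase, the targets of mTORC1 with the partners of eIF4E, and eIF2 with eIF2B and the eIF2 phosphatases, edgeR called 0 of 83 tested genes higher and 0 lower. The first of these lists also held RICTOR and MAPKAP1, which are subunits of mTORC2. Over all tested genes, 1.05% were called higher and 3.99% lower, so few calls would be found among 83 genes at those shares. At an unadjusted p under 0.05, 6 were higher and 3 lower, or 10.8% of the 83, against 19.1% of all tested genes. DESeq2 called 2 higher and 1 lower, the fit with the replicate block 3 higher and 1 lower, and limma-voom and limma-trend on FPKM called 0. Their log2 fold changes lay between -1.13 and 0.85 with a median of 0.11. CASTOR1, the arginine sensor of this pathway, had 11.3 ± 1.63 CPM with GSK-J4 and 18.4 ± 4.80 CPM with DMSO (SD, n = 3 each), a log2 fold change of -0.71 (edgeR adjusted p = 0.0845), and it was called without DMSO replicate 2 (edgeR adjusted p = 0.0256). BMT2, or SAMTOR, the sensor of S-adenosylmethionine, was at 0.59 (edgeR adjusted p = 0.102; 0.0159 without DMSO replicate 2). Of the 10 alternatives that kept all libraries, 4 called CASTOR1 and 3 called BMT2.

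PRKAG2, a regulatory subunit of AMP-activated kinase, was at 0.85 (edgeR adjusted p = 0.0952) and was called without GSK-J4 replicate 1 or without DMSO replicate 2, with adjusted p down to 0.0288. STK11, the kinase upstream of it, was at -0.35, and the autophagy kinase gene ULK1 at 0.43. RPS6, a ribosomal protein that the mTORC1 pathway phosphorylates, was at 0.36, and was called without DMSO replicate 1 (edgeR adjusted p = 0.0401). The Ragulator subunit LAMTOR5 was at 0.26, the lysosomal arginine sensor SLC38A9 at 0.52, EIF2S2, the beta subunit of eIF2, at 0.38, and EIF2AK2 at 0.48, and none of these 4 was called in any fit that left out a library. Of the 10 alternatives that kept all libraries, 2 called PRKAG2 and 1 called EIF2S2. Among other brakes on PI3K and mTOR signalling, 0 of 11 tested genes were higher and 1 was lower in edgeR. At an unadjusted p under 0.05, 2 of these were higher and 1 lower, or 27.3% of the 11, against the same 19.1% of all tested genes. DESeq2 called 1 higher, the fit with the replicate block 2, and limma-voom and limma-trend 0. The lower gene was TXNIP, which limits glucose uptake, with 7.57, 9.29 and 6.46 CPM in GSK-J4 libraries, against 16.1, 12.3 and 13.7 CPM in DMSO libraries. Its log2 fold change was -0.84 (edgeR adjusted p = 0.0328), and the call was lost without any one of GSK-J4 replicates 1, 2 and 3 or DMSO replicates 1 and 3, with adjusted p up to 0.152, and in limma-trend on FPKM.

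In the list of ATF4 and the targets of ATF4 and CHOP, more genes were called. Besides the 9 genes, 14 of the 25 tested genes of this list, the ATF4 gene included, were higher, 1 (TXNIP, also in this list) was lower and 10 were not called, with a median log2 fold change of 0.64 against 0.01 over all tested genes. The number of higher genes was 7 when either GSK-J4 replicate 2 or GSK-J4 replicate 3 was left out, and 6 in limma-trend on log2(FPKM + 1) with no filter. Over all tested genes, edgeR called 1.05% higher and 3.99% lower. With all libraries kept and an unadjusted edgeR p under 0.05, 21 of the list were higher and 1 lower, or 88.0% of the 25. Over all tested genes that share was 19.1%. CHAC1, which degrades glutathione, rose by 2.58 (SE 0.15) on the log2 scale, to 80.3, 89.2 and 78.0 CPM in GSK-J4 libraries, against 11.8, 13.3 and 16.3 CPM in DMSO libraries (edgeR adjusted p = 8.2e-06). ALDH18A1 (1.45), PYCR1 (1.36) and CTH (1.301) rose as well. SESN2, at 1.77, stood between CHAC1 and these 3, which were named by p and not by size of rise. Among the other called genes of the list, SLC7A11 (2.55), PSPH (2.03) and PSAT1 (1.89) also rose by more than SESN2. The call of PSAT1 (edgeR adjusted p = 0.0492) was lost without any one of GSK-J4 replicates 2 and 3 or DMSO replicates 2 and 3, with adjusted p up to 0.157. It was called in 6 of the 10 alternatives that kept all libraries. DDIT4, at 0.15, was below the median of the list. The ATF4 gene, 1 of the 14 and named after its value was seen, rose by 0.62 on the log2 scale, to 656, 760.2 and 704 CPM in GSK-J4 libraries, against 468, 477 and 439 CPM in DMSO libraries (edgeR adjusted p = 0.0060).

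Among p53 and FOXO factors and their targets, which in mammals include the sestrin genes, 3 of 17 other tested genes were higher, 1 (TXNIP again) was lower and 13 were not called, with a median of 0.19. When DMSO replicate 2 was left out, 3 were lower, and when any other library was, 0. The background was again 1.05% of all tested genes called higher and 3.99% lower. With all libraries kept and an unadjusted edgeR p under 0.05, 5 of the list were higher and 3 lower, or 47.1% of the 17. Over all tested genes that share was 19.1%. The cell cycle inhibitor CDKN1A rose by 1.63 (edgeR adjusted p = 0.00051), the p53 antagonist MDM2 by 0.96 (edgeR adjusted p = 0.0011) and CCNG1 by 0.87 (edgeR adjusted p = 0.0029). These 3 rises were called in each of the 6 fits that left out a library, as was that of SESN2, at 1.77, whereas SESN1, at 0.15, was called in none of them. In the list of the glucocorticoid receptor and its targets, 1 of 12 tested genes besides TSC22D3 was higher, 2 were lower and 9 were not called, with a median of -0.13. At an unadjusted edgeR p under 0.05, 1 was higher and 4 lower, or 41.7% of the 12, against 19.1% of all tested genes. The higher gene was the metallothionein gene MT4L, the row matched to MT4 of the list, at 3.67 (edgeR adjusted p = 1.2e-06). The transcription factor gene KLF9 fell by 2.98 on the log2 scale, to 1.95 ± 0.590 CPM with GSK-J4, against 15.4 ± 4.89 CPM with DMSO (SD, n = 3 each, edgeR adjusted p = 0.00037). The kinase gene SGK1, at -1.21 (edgeR adjusted p = 0.0389), lost its call without any one of GSK-J4 replicates 1, 2 and 3 or DMSO replicates 1 and 3, with adjusted p up to 0.170.

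**Figure D5:**
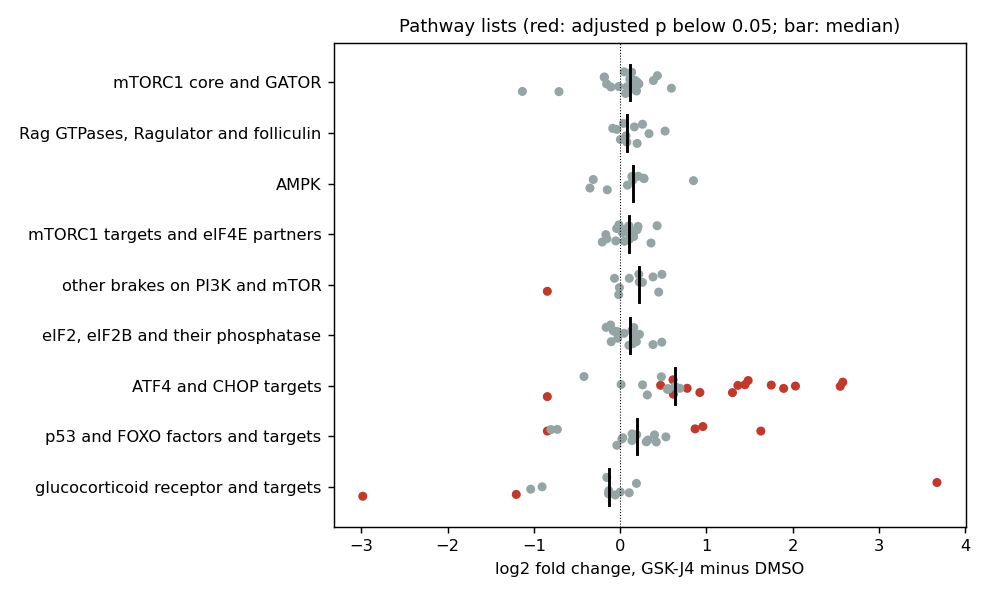
Each point is a tested gene of a list, placed by its log2 fold change (GSK-J4 minus DMSO); red points have an edgeR adjusted p below 0.05 and the black bar is the median of the list. ATF4 with the targets of ATF4 and CHOP has a median of 0.64, and the other lists have medians between -0.13 and 0.21.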

How the data were processed

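Per the submitters' processing notes, the tools were HISAT2 2.0.5, StringTie 1.3.3b, featureCounts 1.5.0-p3 and, for an unstated step, DESeq2 1.20.0; roles are not given. Genome build, annotation release and strand setting are also not given. The authors' deposited counts are whole numbers per gene, not normalised. The authors' deposited FPKM equal those counts over gene length and 1 scaling factor for each library, within 0.1% for 100% of genes with enough counts. Reads were 150 bases long, paired, per the labels' protocols.

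Sample titles gave the groups and replicate numbers. In R 4.3.3 with edgeR 4.0.16, filterByExpr kept 12583 of 17951 genes with any count, TMM factors scaled the libraries, and the effect of treatment, the sole factor, was tested with the robust quasi-likelihood F test, adjusted by Benjamini-Hochberg over all genes tested. Fold changes are GSK-J4 over DMSO, and standard errors were obtained as the absolute log2 value over the square root of F. CPM are TMM-normalised. The fit was tested on simulated data. The biological coefficient of variation was 16.95%, and counting errors cover sampling of reads only. Each pair of replicates differed by more than sampling noise (chi-square per degree of freedom 10.9 to 35.2), so all 6 libraries were counted.

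The members, the 9 pathway lists, the 6 marker lists and the tests were chosen with earlier results of these data known. Lists leave out the members. Named from each list were up to 4 called genes with the smallest p, or the 2 genes with the smallest p where none was called. Symbols were those of the tables or of the RefSeq gene table of GRCg7b, used for names only. Promoter motifs were not analysed here. The result of 1 marker gene is not reported here. DESeq2 1.42.0, limma 3.58.1 on counts (voom) and on log2(FPKM + 0.1) or log2(FPKM + 1), other scalings and filters, a replicate block and leaving out each library were the alternatives.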

Additional observations from a re-analysis of the deposited data

How the results depend on the processing

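SESN2 and TSC22D3 were called higher, and 0 of the 9 genes lower, under each of the 16 alternatives. The log2 fold change of SESN2 ran from 1.61 to 1.89 and that of TSC22D3 from 1.43 to 1.80, with adjusted p up to 0.00899 and 0.0240. None of the other 7 genes was called under any of the 16, and the 1 change of sign was that of EIF2AK1, at 0.015 without GSK-J4 replicate 1, in a range of -0.121 to 0.015 over the fits that left out a library. Library totals in place of TMM moved 5 small values by over 1.5 times, to 0.053 for SESN1, 0.055 for DDIT4, 0.0093 for EIF4EBP1, 0.019 for EIF2AK3 and -0.165 for EIF2AK1. The counts over all genes, on which the background rests, were less stable than the calls of these genes. Against 132 higher and 502 lower, leaving out 1 library gave 42 to 271 higher and 203 to 590 lower. There were 269 higher without a filter, 303 higher with DESeq2, and 406 higher with the replicate block. On log2(FPKM + 0.1) 320 were lower, on log2(FPKM + 1) 87 were higher and 301 lower, and without a filter on that scale 39 and 134. The cause was not tested. Whether replicate numbers pair the libraries was not settled, and the main fit took them as unpaired. Deviations from the group means correlated at 0.297, 0.170 and 0.043 for numbers 1, 2 and 3. Each DMSO library correlated best with the GSK-J4 library of its number, but GSK-J4 replicate 3 was closer to DMSO replicate 2 (0.106). With the replicate block, the members called were still 2 higher and 0 lower. The lowest count of the 9 genes was 106.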
